A study of Mus musculus with 18 samples.

Results

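The transcripts described here were picked out because they changed after withdrawal of leukaemia inhibitory factor (LIF) in mouse embryonic stem cells that carry an Oct4-VP16 fusion, and hardly changed in 2 related lines. The probes were selected on the deposited table: the mean at 120 h without LIF had to differ at least 2.38-fold from that at 24 h with LIF in Oct4VP2 cells, and by less than 0.3 on the log2 scale in both Oct4 and ZHBTc4 cells. Of 25030 probes in that table, 130 met the rule, 62 rising and 68 falling in Oct4VP2. The limit in the other lines alone was met by 4372 probes. The 24 h and 120 h arrays therefore chose the members, and what they show is given as a description; only the 48 h arrays took no part in the choice and could be tested.

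Oct4VP2 cells were made from the ZHBTc4 line by electroporation of an oct4-vp16 construct that integrated at random, and were kept in tetracycline and under puromycin selection. They were plated at 250000 cells per flask and sampled 24 h after plating with LIF, or 48 h or 120 h after LIF was withdrawn. Oct4 cells came from ZHBTc4 by electroporation of an oct4 construct, were plated at 200000 cells and sampled at the same times. The labels describe the Oct4 cultures without LIF like those of Oct4VP2, but call those with LIF a gene knock-in of the lines Oct4 (4) and Oct4 (5), and mention no tetracycline or puromycin for them. ZHBTc4 itself, of strain 129/Ola like the lines made from it, has an oct4 transgene that tetracycline switches off. It was plated at 200000 cells, with no mention of tetracycline, and sampled at the same times. Each of the 9 groups had 2 arrays, described in the series as independent clones. In Oct4VP2 the 24 h and 48 h arrays were on 1 slide and the 120 h arrays on another. Slide and time therefore cannot be told apart in the change that chose the members. On each array the culture's RNA was labelled with Cy3 and a mouse reference RNA with Cy5. The depth of an array is not a count, and its precision is limited by the number of arrays and by the brightness of the probe over its background. Between 62.8% and 75.2% of probes were well above background in Cy3 on an array.

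Oct4 is a transcription factor of the POU family that embryonic stem cells need to stay pluripotent. It can activate or repress its targets. VP16 is a herpes virus protein whose activation domain recruits the transcription machinery, so a fusion to it is used to turn a DNA-binding protein into a strong activator. LIF is the cytokine that keeps mouse embryonic stem cells self-renewing in culture, through its receptor and STAT3, and its removal lets them differentiate.

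No file links a probe to a gene. Of the probe identifiers, 0 were found in the mouse gene table, so no member is given a gene name, a function or a chromosome, and the defining markers of embryonic stem cells could not be looked up. The members are shown by sequence instead, as 30 bases of each 60-base probe, read 5′ to 3′ from the scanner files. The members with the largest change by the rule were Z00071664-1 and Z00071311-1 among the rising and Z00076798-1 and Z00038721-1 among the falling. The other probes carry letters and were chosen after their values were seen. Capitals in riser D, faller B and faller D mark bases that a second probe on the array shares, and capitals in fallers C, E and F mark runs of at least 6 G or C.
Z00071664-1: gaaaggagactacgattggagcatcacaag
Z00071311-1: tcccttaatttatggtttcttctacccttg
Z00076798-1: attcctttgcgtcaaatttagtatttggtt
Z00038721-1: gccaatggttatacatatgataatactggc
riser A: gggaacacctcaaggggcttggcaagtgtg
riser B: tgctggattgtgggagtcaaatgactgcca
riser C: aaagaactttatgaatcttttccaagtcga
riser D: GGTACACTTTTTCAGATCTGTCCGATAGAA
riser E: gacaccttttgtttccggcttatattttct
faller A: atatgctctttttggagtcagacaaatgtg
faller B: GAGGAAATATTGCATCCCCAAACTGCCTGC
faller C: cgcaccgtGCGCCCGCCGCCGCaccgcacc
faller D: tggtgCATGTGCTATTCGAGATGCTGCCAA
faller E: gagctGCGGCGCGacctggccttgccatcg
faller F: ccgtccgaGCCGCCaaccggagacccaggc
faller G: ggtgccaacttttgtgtcgtgctatcagaa

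As a group the member probes had the base composition of the table they came from. The median GC content was 41.7% ± 7.48 in the 62 rising probes and 45.0% ± 10.4 in the 68 falling ones, against 43.3% ± 7.88 over all 25030 (SD over probes). The letters AATAAA, the core of the common polyadenylation signal, were searched on the probe's own strand. They were in 9 rising probes (14.5%) and in 1 falling probe (1.47%), against 7.90% of all probes of the same length.

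By the values that chose them, rising members changed by up to 3.71 in Oct4VP2 (log2, median 1.67) and falling members by down to -3.66 (median -1.57). Just inside the threshold lay rising changes of 1.2525 and 1.2565 and falling changes of -1.2525 and -1.254. Just outside lay 1.2362 and 1.2266 on the rising side and -1.2406 and -1.2351 on the falling side. Both 120 h arrays lay above both 24 h arrays in 61 of the 62 rising members, a separation that 25.3% of the table's probes had. Both lay below in 60 of the 68 falling members, and in 30.8% of the table.

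Most members were dim. A probe counted as measured in a group when its Cy3 signal was well above background on both arrays of that group. This held in all 9 groups for 27 members (20.8%, 14 rising and 13 falling), in 1 to 8 groups for 45, and in no group for 58 (44.6%). Of all probes of the table, 59.6% were measured in all 9 groups and 22.3% in none. In the Oct4VP2 group where a member was high, 32 of the 62 rising members (120 h) and 29 of the 68 falling ones (24 h) were measured. A filter that kept probes measured in at least 1 group was passed by 72 members, 38 rising and 34 falling, and the tests below cover only these.

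The size of a dim member's change depended on how the signals were processed. The deposited values are ratios of background-subtracted signals, which spread widely when both channels are close to background. After a background correction that keeps dim signals away from 0 (normexp with an offset of 50) and loess within each array, the median change in Oct4VP2 was 1.16 in the 14 rising members measured in all 9 groups, 0.24 in the 24 measured in some groups and 0.14 in the 24 measured in none. In falling members the medians were -1.23 in 13, -0.37 in 21 and -0.13 in 34. A change of at least 2-fold in the direction of the rule was left in 11, 1 and 0 of these rising members and in 8, 0 and 0 of the falling ones. The whole rule was met again by 4 rising and 4 falling members. The plot of both changes shows the dim members lying close to 0 after this processing. An offset pulls the ratios of dim signals toward 0 by construction. Background correction, loess and the removal of flagged spots were not tested apart.

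**Figure D1:**
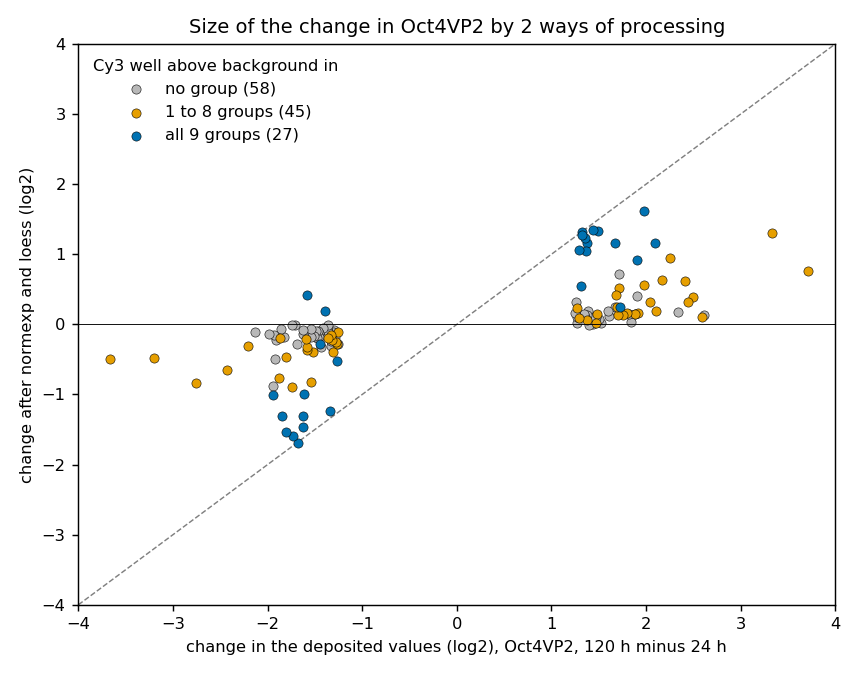
Change in Oct4VP2 cells between 24 h with LIF and 120 h without LIF for the 130 members, in the deposited values (horizontal, log2) and after normexp and loess (vertical, log2); each point is a probe, coloured by the number of groups in which Cy3 was well above background, and the dashed line marks equal changes. By their medians, members measured in all 9 groups lie nearest that line, at 1.16 and -1.23 on the vertical axis. Faller G and Z00023917-1 are among them and lie above 0 on that axis, though they fell in the deposited values. Members measured in no group have medians of 0.14 and -0.13 there.

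The reference channel was set beside the sample channel in the same members. Every array had the same reference RNA in Cy5, so the reference itself did not change with the cells. The measured Cy5 signal could still move with Cy3, as in riser E below. A Cy5 change alone therefore does not show that the cells' RNA stayed the same. The Cy5 change between 24 h and 120 h in Oct4VP2 exceeded the Cy3 change in size in 10 of the 24 rising and 19 of the 34 falling members measured in no group. It did so in 2 of the 14 rising and 0 of the 13 falling members measured in all 9. The share of all probes in which it did so was not counted, so these counts have no background beside them. The rule chose members by the ratio of both channels on these arrays, so the counts are a description. Over all 31727 probes tested, the SD of the change was 0.165 in Cy5 and 0.521 in Cy3 (log2).

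The 4 members with the largest deposited changes were among the dim ones. Unless said otherwise, values from here on are on the log2 scale, as sample over reference, and come from the normexp and loess processing, with each group given by its 2 arrays. Z00071664-1 had 0.03 and -0.71 at 24 h, 0.28 and 0.21 at 48 h and 0.50 and 0.34 at 120 h in Oct4VP2 cells. The second 24 h array alone lay below all others, and neither 24 h array was well above background. On that array the log2 Cy5 signal was 6.86, against 6.05 on the first 24 h array and 5.99 and 5.95 at 120 h, while its Cy3 mean signal was 66, against 52 on the first 24 h array and 77 and 61 at 120 h. Between 24 h and 120 h the mean log2 change was 0.24 in Cy3 and -0.49 in Cy5, so the reference channel moved further than the sample. The same probe stayed between 0.13 and 0.38 on the 6 Oct4 arrays and between -0.06 and 0.28 on the 6 ZHBTc4 arrays.

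Z00071311-1 is the dim member whose change stood out in both ways of processing. It had 0.16 and 0.38 at 24 h, 0.18 and 0.78 at 48 h and 0.94 and 2.20 at 120 h in Oct4VP2 cells. On the Oct4 arrays it lay between -0.11 and 0.03, and on the ZHBTc4 arrays between -0.01 and 0.17. It was well above background on both arrays in Oct4VP2 at 120 h only, and there its arrays differed by more than 1 log2 unit.

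Z00076798-1 and Z00038721-1, the leading falling members, were measured in Oct4VP2 at 24 h alone, on both arrays. Z00076798-1 had -0.08 and -0.13 there, -0.63 and -0.51 at 48 h and -0.59 and -0.61 at 120 h, against -0.78 to -0.29 on the Oct4 arrays and -0.64 to -0.42 on the ZHBTc4 arrays. Its Cy3 mean signal was 62 and 69 at 24 h and 49 and 50 at 120 h in Oct4VP2. Z00038721-1 had -2.53 and -2.56 at 24 h, -3.11 and -3.37 at 48 h and -3.00 and -3.06 at 120 h in Oct4VP2. In Oct4 it had -3.25 and -3.35, then -3.00 and -3.13, then -2.40 and -2.61, and in ZHBTc4 -2.90 and -3.00, then -2.64 and -3.20, then -2.61 and -3.05. Between 24 h and 120 h it changed by -0.49 in Oct4VP2 and by 0.79 in Oct4 after loess, so the change in Oct4 was the larger. The deposited log2 changes in Oct4VP2 were 3.71 for Z00071664-1, -3.66 for Z00076798-1 and -3.20 for Z00038721-1.

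The 27 members measured in all 9 groups carry the firmest Cy3 values. Cy5, the other part of the ratio, was well above background in all 9 groups in fewer of them. This held for 11 of the 14 rising and 10 of the 13 falling ones. Of the 14 rising ones, 14 had both 120 h arrays above both 24 h arrays in Oct4VP2, with changes of 0.25 to 1.61. The 13 falling ones had changes of -1.69 to 0.42, and in 11 the arrays of the 2 times did not overlap. The 11 include Z00023917-1, which rose by 0.19 after loess, with both 120 h arrays above both 24 h arrays. The same processing called 12 rising members higher at 120 h in Oct4VP2, where 2.81% of all tested probes were, and 7 falling members lower, where 1.83% were. A call needed a Benjamini-Hochberg adjusted p under 0.05 in limma and a 2-fold difference. The choice of the members used this contrast, so these counts and the separations above support nothing. The share of all probes separated in this way after loess was not counted. Since the samples were bulk cultures, fewer cells of a type and less RNA per cell cannot be told apart in any of these values.

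Riser A and riser D were called higher at 120 h than at 24 h in Oct4VP2, and changed by at most 0.33 over that time elsewhere. Riser A had -1.58 and -2.24 at 24 h, -0.56 and -1.17 at 48 h and -0.44 and -0.15 at 120 h in Oct4VP2 cells. It stayed between -1.87 and -1.43 on the Oct4 arrays and between -2.11 and -1.33 on the ZHBTc4 arrays, so that all 4 Oct4VP2 arrays without LIF lay above every array of the other lines. Its change between 24 h and 120 h was 1.61 in Oct4VP2, 0.33 in Oct4 and 0.16 in ZHBTc4. Riser D had -1.76 and -1.35, then -1.09 and -0.75, then -0.48 and -0.32 in Oct4VP2 at the 3 times. In Oct4 cells it had -1.37 and -1.38, then -0.81 and -1.01, then -1.38 and -1.38. The 48 h arrays of both lines overlapped, and they separated at 120 h.

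Faller A and faller B fell early in Oct4VP2. Faller A had -0.78 and -0.28 at 24 h, -1.99 and -1.98 at 48 h and -2.16 and -1.97 at 120 h. Its level without LIF lay near that of the other lines, which was between -2.04 and -1.76 in Oct4 and between -2.03 and -1.53 in ZHBTc4 at all times. The difference between the lines was at 24 h with LIF, where both Oct4VP2 arrays stood above all arrays of Oct4 and ZHBTc4.

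Faller B went below the other lines instead. It had -0.79 and -0.89 at 24 h, -2.73 and -2.29 at 48 h and -2.32 and -2.54 at 120 h in Oct4VP2 cells. On the Oct4 arrays it lay between -2.11 and -1.27 and on the ZHBTc4 arrays between -1.74 and -1.15. The Oct4VP2 arrays stood above all of these with LIF and below all of them without it.

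**Figure D2:**
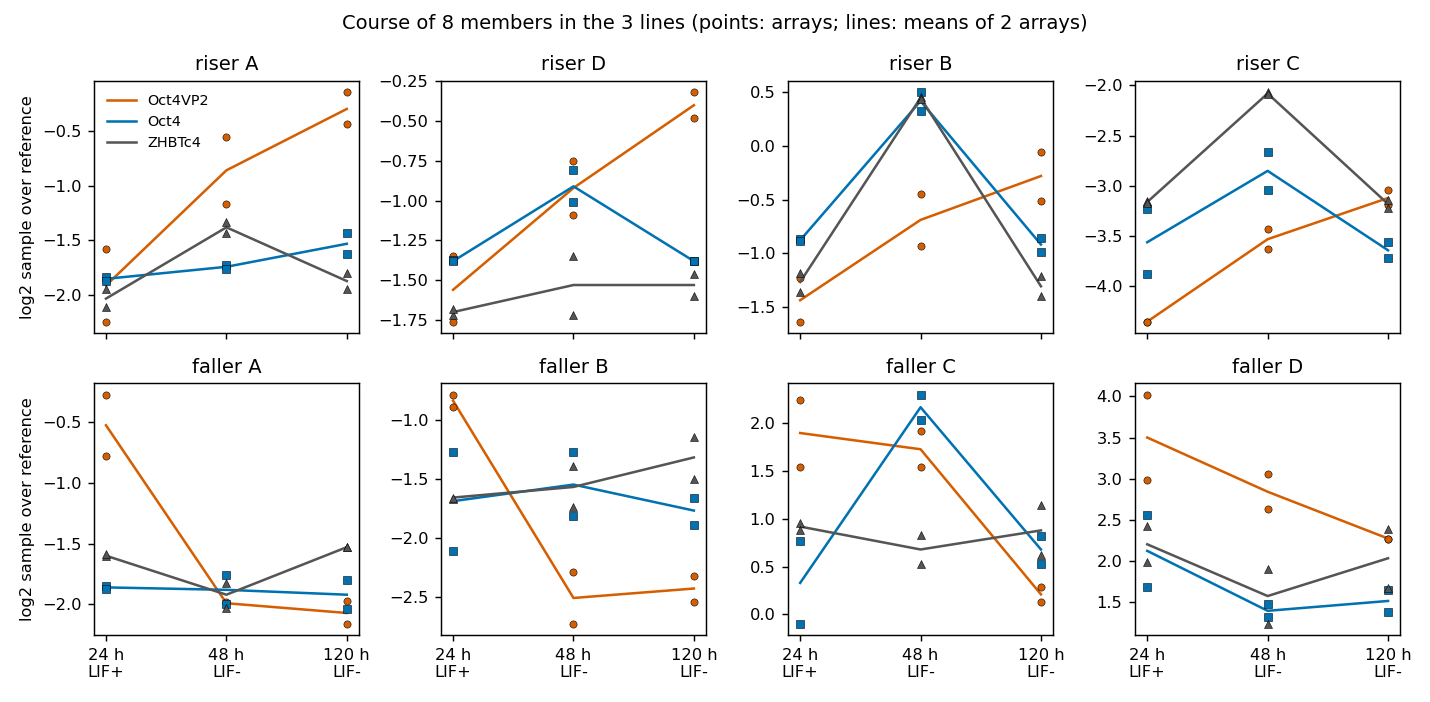
Log2 ratio of sample over reference for 8 members measured in all 9 groups, at 24 h with LIF and 48 h and 120 h without it (equally spaced on the axis), in Oct4VP2 (circles), Oct4 (squares) and ZHBTc4 (triangles) cells; points are arrays and lines join means of 2 arrays. Risers A and D and fallers A and B moved in Oct4VP2 with smaller changes elsewhere, whereas risers B and C peaked at 48 h in Oct4 and ZHBTc4 and faller C peaked at 48 h in Oct4.

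The 48 h arrays gave the comparison that the rule did not use. Against Oct4, Oct4VP2 cells had 0 rising members called higher and 2 lower, and 2 falling members called higher and 0 lower, among the 38 rising and 34 falling members tested. Of these, 8 rising and 7 falling members passed the filter on dim probes only through the Oct4VP2 group where the rule made them high. Over all probes tested, 3.3% were called higher and 2.81% lower. Against ZHBTc4, 0 rising members were higher and 3 lower, and 3 falling members were higher and 1 lower, beside 3.22% of all probes higher and 2.67% lower. With 38 rising members tested and these shares over all probes, the 0 called higher is no result about the members. Among the 14 rising and 13 falling members measured in all 9 groups, 0 and 2 were higher and 1 and 0 lower than in Oct4, and 0 and 3 were higher and 2 and 1 lower than in ZHBTc4. At an unadjusted p under 0.05 in limma, with no limit on the fold, 3 rising members were higher and 7 lower in Oct4VP2 than in Oct4, and 5 falling members were higher and 6 lower. That threshold was passed upward by 16.6% and downward by 17.1% of all probes. Against ZHBTc4 the counts were 4 rising members higher and 8 lower and 7 falling members higher and 5 lower, beside 18% and 17.4% of all probes.

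The median difference between Oct4VP2 and Oct4 at 48 h was -0.01 in rising and -0.08 in falling members tested, against -0.01 over all probes. Between Oct4VP2 and ZHBTc4 it was -0.05 and -0.02, against -0.01 over all probes. In the members measured in all 9 groups the medians lay further from 0. They were -0.10 in the 14 rising and -0.40 in the 13 falling against Oct4, and -0.18 and -0.06 against ZHBTc4. Between Oct4 and ZHBTc4, 2 falling members were called higher in Oct4 and 0 rising ones were called in either direction, beside 0.366% of all probes higher and 0.385% lower.

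Risers B, C and E were the rising members called lower in Oct4VP2 at 48 h. Riser B had -0.93 and -0.45 at 48 h in Oct4VP2, against 0.33 and 0.50 in Oct4 and 0.46 and 0.44 in ZHBTc4. The difference was -1.11 ± 0.18 against Oct4 (SE; limma adjusted p = 0.000902) and -1.14 ± 0.18 against ZHBTc4 (limma adjusted p = 0.000751). The arrays of the lines did not overlap. In Oct4 cells riser B had -0.87 and -0.89 at 24 h and -0.99 and -0.86 at 120 h, and in ZHBTc4 -1.36 and -1.19, then -1.40 and -1.21. In both lines the 48 h arrays lay above those at 24 h and at 120 h, which lay close together.

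Riser C also peaked at 48 h in both other lines. It had -4.35 and -4.35 at 24 h, -3.63 and -3.43 at 48 h and -3.19 and -3.04 at 120 h in Oct4VP2. At 48 h it had -3.04 and -2.66 in Oct4 and -2.07 and -2.09 in ZHBTc4, both above their own 24 h and 120 h arrays. The difference at 48 h was -1.45 ± 0.18 against ZHBTc4 (SE; limma adjusted p = 0.000122) and -0.67 ± 0.18 against Oct4 (limma adjusted p = 0.0151), the second under 2-fold.

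Riser E is a member whose steadiness in Oct4 cells was not seen in the Cy3 channel. Its deposited values changed by 0.30 in Oct4, under the limit of the rule. Its Cy3 mean signal was 2180 and 2542 at 120 h, against 79 and 96 at 24 h, in Oct4 cells, and its log2 ratio after loess was 2.70 and 2.86 at 120 h, against 0.24 and 0.68 at 24 h. Its log2 Cy5 signal on these Oct4 arrays was 8.23 and 8.32 at 120 h and 6.08 and 6.06 at 24 h, although the reference RNA was the same. In Oct4VP2 the Cy3 signal was 55 and 58, then 76 and 71, then 247 and 86 at the 3 times. At 48 h its log2 ratio was 0.47 and 0.31 in Oct4VP2, 2.18 and 0.98 in Oct4 and 2.26 and 2.47 in ZHBTc4. The Cy3 signal of the Oct4 arrays was 543 and 134, so these arrays differed widely. Log2 Cy5 in ZHBTc4 was 7.07 and 6.58 at 48 h, against 6.09 and 6.03 at 24 h. At 48 h riser E was lower in Oct4VP2 by -1.19 ± 0.33 against Oct4 (limma adjusted p = 0.0213). Against ZHBTc4 the difference was -1.98 ± 0.33 (limma adjusted p = 0.00105). No other member changed by 2-fold in Oct4 or ZHBTc4 between 24 h and 120 h after loess, but 5 rising and 13 falling members, riser E among them, passed the limit of 0.3.

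Fallers D and G were higher in Oct4VP2 than in both other lines at 48 h. Faller D had 4.02 and 2.98 at 24 h, 3.05 and 2.63 at 48 h and 2.27 and 2.27 at 120 h in Oct4VP2. At 48 h it had 1.31 and 1.47 in Oct4 and 1.23 and 1.90 in ZHBTc4, without overlap. The difference was 1.45 ± 0.36 against Oct4 (SE; limma adjusted p = 0.012) and 1.27 ± 0.36 against ZHBTc4 (limma adjusted p = 0.0229). It fell toward the level of the other lines, which had also gone down by 48 h.

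Faller G fell in the deposited values and did not fall after loess. Its deposited log2 values in Oct4VP2 were 10.43 and 11.51 at 24 h and 9.24 and 9.52 at 120 h, and its log2 ratios after loess were 2.41 and 3.06 at 24 h, 3.61 and 3.75 at 48 h and 2.93 and 3.38 at 120 h. The Cy3 mean signal was 429 and 642, then 1125 and 1471, then 757 and 1148, so it was higher without LIF. The Cy5 signal was well above background on both arrays of 1 group. At 48 h faller G was higher in Oct4VP2 by 2.32 ± 0.36 against Oct4 (limma adjusted p = 0.000594) and by 1.79 ± 0.36 against ZHBTc4 (limma adjusted p = 0.0032).

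Fallers C, E and F moved together in Oct4 cells. Faller C had 2.25 and 1.54 at 24 h, 1.54 and 1.92 at 48 h and 0.13 and 0.29 at 120 h in Oct4VP2. In Oct4 it had -0.10 and 0.77, then 2.3 and 2.04, then 0.82 and 0.53, and in ZHBTc4 it stayed between 0.53 and 1.15. At 48 h it was higher in Oct4VP2 than in ZHBTc4 by 1.05 ± 0.29 (limma adjusted p = 0.0185) and higher in Oct4 than in ZHBTc4 by 1.49 (limma adjusted p = 0.0179). Against Oct4 the difference in Oct4VP2 was -0.44 (limma adjusted p = 0.318).

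Faller E had 1.93 and 1.51 at 48 h in Oct4 cells, against -0.38 and 0.68 at 24 h, and faller F had 2.17 and 1.84, against 0.00 and 0.83. At 48 h in Oct4VP2, faller E had 0.90 and 1.31 and faller F had 1.38 and 1.75. Faller F was higher in Oct4 than in ZHBTc4 by 1.38 (limma adjusted p = 0.00921). These 3 probes had a GC content of 75.0% to 81.7%, while no other falling member measured in all groups exceeded 55%. Over the 705 tested probes of the table with at least 60% GC, the median change at 48 h in Oct4 was 0.09, and over the other 18733 it was 0.04. The part of base composition in the shared course of the 3 probes was not tested.

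Faller H, a falling member lower in Oct4VP2 than in ZHBTc4 at 48 h, had 1.41 and 1.55 in Oct4VP2, 1.96 and 2.02 in Oct4 and 2.39 and 2.62 in ZHBTc4. The difference against ZHBTc4 was -1.03 ± 0.11 (limma adjusted p = 7.28e-05). Its change in Oct4VP2 between 24 h and 120 h was -0.28 after loess, with 0.99 and 1.08 at 24 h and 0.81 and 0.70 at 120 h.

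**Figure D3:**
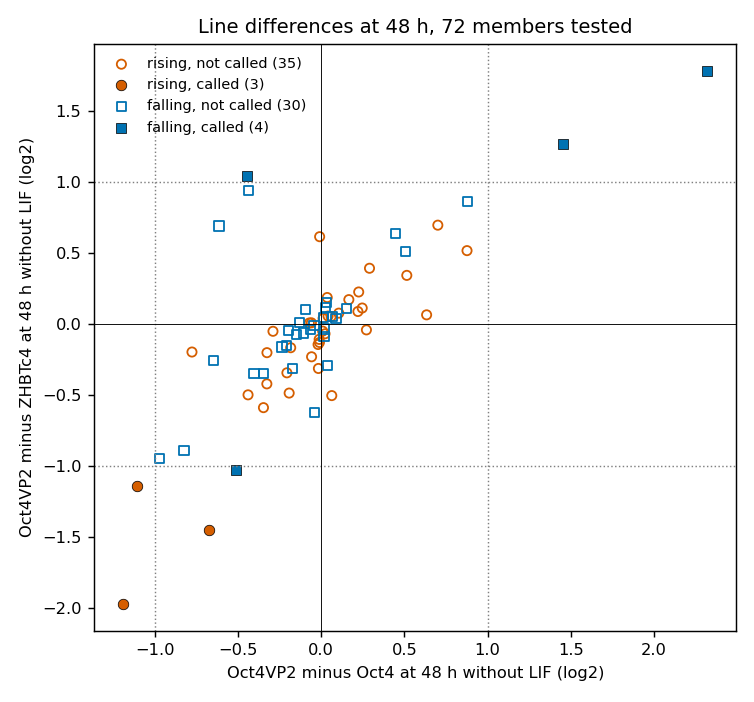
Differences between lines at 48 h without LIF for the 72 members tested (log2), Oct4VP2 minus Oct4 (horizontal) and Oct4VP2 minus ZHBTc4 (vertical); circles are rising and squares falling members, filled where called in either comparison, and dotted lines mark 2-fold. The 3 called rising members lie below 0 on both axes, and the 4 called falling members are spread over both sides.

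At 48 h some of the well-measured members had moved in the other lines too. Of the 27 measured in all 9 groups, 6 rising and 3 falling ones moved at least 2-fold between 24 h and 48 h in Oct4 or ZHBTc4, and 3 rising and 3 falling ones did so in Oct4VP2. Among members tested, the change from 24 h to 48 h was called in Oct4VP2 for 3 rising members (up; 0.946% of all probes) and 4 falling members (down; 0.851%). In Oct4 it was called up for 4 rising and 3 falling members (1.4% of all probes) and down for 1 rising member (1.36%). In ZHBTc4 it was called up for 5 rising members (1.87%) and down for 0 falling members (2.37%). These changes share the 24 h arrays with the rule and are given as a description. The change to 48 h was higher in Oct4VP2 than in Oct4 for 1 rising member and lower for 4 falling ones, beside 1.12% of all probes higher and 0.971% lower. Against the change in ZHBTc4, 1 rising member was higher and 2 falling ones lower, beside 2.02% and 1.04% of all probes. These differences share the same 24 h arrays and are a description too. The 24 h arrays of Oct4 and ZHBTc4 were scanned in another session than those of Oct4VP2 and the Oct4 arrays without LIF. The session was added as a block after the data were seen, and was estimated from the ZHBTc4 arrays. With it, the change in Oct4 was called up for 2 rising and 4 falling members, and in ZHBTc4 up for 4 rising ones. The share of all probes called with this block was not counted, so these counts have no background beside them.

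The gap between the lines changed side in 11 rising and 7 falling of these members, where the 24 h and 120 h gaps rest on the arrays that chose them. In the 14 rising ones, Oct4VP2 minus the mean of Oct4 and ZHBTc4 had a median of -0.40 at 24 h, -0.20 at 48 h and 0.62 at 120 h. Oct4VP2 was below the other lines in 12 of the 14 at 24 h and in 1 at 120 h. In the 13 falling members the median was 0.81 at 24 h, -0.08 at 48 h and -0.48 at 120 h, and Oct4VP2 was below in 3 at 24 h and in 10 at 120 h. The gap was narrower at 120 h than at 24 h in 6 rising and 7 falling members. Of these, 5 rising and 6 falling members had crossed to the other side of the other lines. At 48 h the level in Oct4VP2 was nearer to its 120 h level than to its 24 h level in 7 of the 14 rising and 8 of the 13 falling members.

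**Figure D4:**
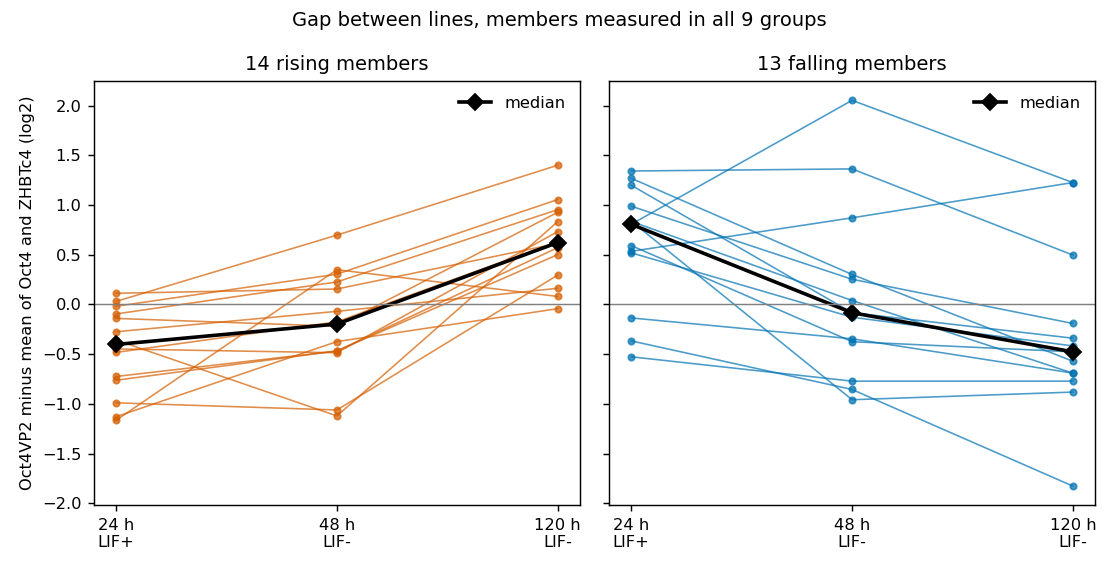
Oct4VP2 minus the mean of Oct4 and ZHBTc4 (log2) at 24 h with LIF and 48 h and 120 h without it, for the 14 rising and 13 falling members measured in all 9 groups; thin lines are members and the black line is the median. The median passes from -0.40 through -0.20 to 0.62 in rising members and from 0.81 through -0.08 to -0.48 in falling ones.

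Some members could be set beside a second probe that shares part of their sequence. Of the 130 members, 10 shared at least 20 bases with another probe of the array, none of which was a member, over 22 to 53 bases. In 4 of these 10 pairs both probes were measured in all 9 groups. Riser D changed by 1.16 in Oct4VP2 and its partner, which shares 53 bases, by 0.91, while in Oct4 they changed by -0.01 and 0.00. Faller B changed by -1.59 and its partner, which shares 47 bases, by -1.30. Against Oct4 at 48 h the partner of faller B was lower by -0.81 in Oct4VP2 (limma adjusted p = 0.0339), close to the -0.97 ± 0.26 of faller B (limma adjusted p = 0.0158), both under 2-fold.

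Faller D changed by -1.23 in Oct4VP2 and its partner, with 25 shared bases, by -1.18. In Oct4 the changes were -0.61 and -0.88, so the partner moved there nearly as far as in Oct4VP2. At 48 h the partner was higher in Oct4VP2 than in Oct4 by 1.68 (limma adjusted p = 0.00178) and than in ZHBTc4 by 1.37 (limma adjusted p = 0.00629). Faller H and its partner, with 23 shared bases, changed by -0.28 and -0.10 in Oct4VP2. In Oct4 they changed by -0.19 and -0.59, so these changes were not alike. At 48 h the partner, like faller H, was lower in Oct4VP2 than in ZHBTc4, by -1.50 (limma adjusted p = 0.00012). Against Oct4 the partner was lower by -0.95 (limma adjusted p = 0.00241), under 2-fold. Probes that share bases can bind the same RNA and do not count as separate observations.

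The 48 h calls on members depended on the values used. In the deposited table, Oct4VP2 against Oct4 at 48 h gave 5 rising members higher and 2 lower and 6 falling members higher and 3 lower, beside 6.03% of its tested probes called higher and 6.03% lower. Against ZHBTc4 it gave 4 rising higher and 3 lower and 7 falling higher and 2 lower, beside 7.01% higher and 5.58% lower. In that table Z00071311-1 was higher in Oct4VP2 at 48 h by 3.39 against Oct4 (limma adjusted p = 0.00348). Against ZHBTc4 it was higher by 1.92 (limma adjusted p = 0.0484). After normexp and loess it differed by 0.51 (limma adjusted p = 0.245) and 0.34 (limma adjusted p = 0.452). It passed the filter only through Oct4VP2 at 120 h, where the rule made it high, so these p-values support nothing. At 48 h it was well above background on 1 Oct4VP2 array and on no Oct4 or ZHBTc4 array. Leaving out replicate 1 of Oct4VP2 at 48 h left 1 of the 4 members called against Oct4, leaving out replicate 1 of Oct4 left 2, and leaving out replicate 2 of Oct4 gave 6. At 48 h the Oct4VP2 and Oct4 arrays were on different slides of 1 scan session. Slide and line therefore cannot be told apart between them. The ZHBTc4 arrays at 48 h were on other slides again, so the same holds against ZHBTc4. Against ZHBTc4, 10 members were called with the session as a block. The share of all probes called in that fit is not given here, so this count has no background beside it.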

How the data were processed

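RNA of 18 cultures was measured on 2-colour arrays with 60-base probes. The deposited scanner files hold each spot's intensity and a log10 ratio (Cy5 over Cy3), and come from Agilent's Feature Extraction, version 9.5.1.1, per the file headers. The authors also deposited a value table on a log10 scale, which lay within 0.001 of the scanner files' processed-signal ratios (Cy3 over Cy5) on every array once each probe was centred, so the constant of each probe stays unknown. Its column medians lay between 2.33 and 2.36. It was multiplied by 3.3219 to give log2 values, and the rule was applied to means of 2 arrays. Flags for signals above background are those of the deposited scanner output.

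Scanner signals were corrected with normexp (offset 50) and loess in limma 3.58.1 (R 4.3.3), spots with an outlier flag were left out, and the sign was turned to sample over reference. One mean per group was fitted to the 31727 probes measured on both arrays of at least 1 group, with 9 residual and 3.69 prior degrees of freedom, and p-values were adjusted over all of them. The threshold is the one in the series description. The fit was tested on simulated data.

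The members, the letters and the alternatives were chosen with earlier results of these data known. The rule for named genes could not be used without gene names, nor could the marker lists, which were not analysed here. Instead the 2 rising and 2 falling probes with the largest change are given, and others by letter. Same-numbered arrays deviated together within Oct4VP2 (correlations of 0.291 to 0.52) but not throughout within Oct4 and ZHBTc4 (-0.226 to 0.703), nor between lines (-0.251 to 0.198). The 48 h tests compare lines, whose clones differ, so the numbers were not taken as pairs. The changes within a line were fitted without pairs too. The 0.703 was between ZHBTc4 at 48 h and at 120 h. In both groups replicates 1 and 2 were scanned in different sessions, so clone and session cannot be told apart there. The slide correlation in the fit with slide as a random block was 0.165.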

Additional observations from a re-analysis of the deposited data

Results flagged for a closer look

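The change between 24 h with LIF and 48 h without it differed between Oct4VP2 and Oct4 in 5 members, by a limma interaction over all probes with adjusted p under 0.05 and at least 2-fold. Riser F, another rising member measured in all 9 groups, changed more upward in Oct4VP2 by 1.90 (limma adjusted p = 0.0285), beside 1.12% of all probes. Fallers A, B, C and F changed less upward or more downward in Oct4VP2, by -1.44, -1.82, -2.01 and -1.59 (limma adjusted p = 0.00538, 0.0175, 0.0183 and 0.0182), beside 0.971% of all probes. Between Oct4VP2 and ZHBTc4 the change differed in 3 members. Riser G, also measured in all 9 groups, changed more upward by 1.06 (limma adjusted p = 0.0343), beside 2.02% of all probes, and fallers A and B fell more, by -1.13 and -1.77 (limma adjusted p = 0.0107 and 0.0151), beside 1.04%. The differences share the 24 h arrays of all lines with the rule that chose the members, so their adjusted p-values support nothing. The causes of these differences were not tested. They also rest on 2 scan sessions, since the 24 h arrays of Oct4 and ZHBTc4 were scanned apart from all Oct4VP2 arrays. With the session as a block, estimated from the ZHBTc4 arrays, 5 members differed from Oct4 and 4 from ZHBTc4. The share of all probes that differed in this fit was not counted. Fallers A, C and F were still called against Oct4, and fallers A and B and riser G against ZHBTc4, but riser F had 1.95 (limma adjusted p = 0.0633) and faller B -1.48 (limma adjusted p = 0.0671) against Oct4. Riser F had 0.22 and 1.4 at 24 h and 1.22 and 1.28 at 48 h in Oct4VP2, against 2.44 and 1.71 at 24 h and 0.59 and 0.64 at 48 h in Oct4. Its Cy3 mean signal in Oct4VP2 was 276 and 245 at 24 h and 191 and 247 at 48 h, so Cy3 was not higher at 48 h. Its log2 Cy5 signal was 7.76 on the first 24 h array, against 6.42 on the second and 6.27 and 6.48 at 48 h.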

How the results depend on the processing

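Membership depended on most choices tried. The rule gave 28 members after normexp and loess (8 of them among the 130), 29 in Cy3 alone (6 shared), 241 and 75 with a minimum change of 1 and 1.5, 53 and 292 with a limit of 0.2 and 0.5 in the other lines, and 96 to 211 with 1 array left out (67 to 104 shared), with 198 and 211 without replicate 1 and 2 of Oct4VP2 at 24 h. At 48 h, Oct4VP2 against Oct4 had 1938 probes and 4 members called, 3232 and 14 in processed signals, 16 members in the deposited table, and 7119 and 14 by adjusted p alone; leaving out 1 array gave 1715 to 1930 and 1 to 6. Oct4VP2 against ZHBTc4 had 1868 and 7, 3434 and 15 in processed signals, 16 members in the deposited table, and 7555 and 18 by adjusted p alone; leaving out 1 array gave 1626 to 1999 and 5 to 9. Oct4 against ZHBTc4 had 238 and 2, 433 and 4 in processed signals, 5 members in the deposited table, 155 probes with slide as a random block, 119 from the 48 h arrays alone, and 1086 and 5 by adjusted p alone; leaving out 1 array gave 78 to 224 and 0 to 2, with 78 without replicate 2 of Oct4, 120 without replicate 2 of ZHBTc4 and 0 members without replicate 1 of ZHBTc4. With the replicate block, 1943, 1880 and 258 probes were called, and no count of members changed. Signal over background limits what the dim members can show. The causes were not tested.

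Some line differences at 48 h changed sign. Against Oct4, Z00071664-1 had -0.22 in processed signals and in the deposited table, and Z00038721-1 had 1.48 in both and 0.15 in Cy3 alone. Riser D had 0.0377 in processed signals, 0.0375 in the deposited table and 0.19 in Cy3 alone, and -0.1763 to 0.1589 with 1 array left out. Faller A had 0.13 in Cy3 alone and 0.011 without replicate 1 of Oct4. Against ZHBTc4, Z00076798-1 had 0.59 in processed signals and in the deposited table and 0.0488 in Cy3 alone, and -0.1495 to 0.0593 with 1 array left out. Z00038721-1 had 0.60 in both and 0.14 in Cy3 alone, and riser F had -0.43 in both. Faller A had 0.03 in processed signals, 0.0301 in the deposited table and 0.0328 in Cy3 alone, and -0.1658 to 0.0412 with 1 array left out. Of the single-probe differences under the alternatives, 558 kept direction and call, 24 lost the call, 28 gained it and 26 changed sign.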
